A study of Mus musculus with 2 samples.

Results

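The transcripts of 32 cell cycle genes were followed across the cell types of the mouse aorta in single-cell RNA sequencing of 2 libraries. The genes were taken by symbol from a fixed list, and all 32 were found among the 32285 features of the count tables. The Cept1 library came from mice homozygous for a floxed Cept1 allele and carrying a tamoxifen-inducible Cre recombinase, VE-cadherin-Cre-ERT2 (Cept1fl/flCre+), which the labels describe as endothelial overexpression of Cept1. The control library came from mice with the same Cept1fl/fl genotype and no Cre. All mice were male and of the C57BL6 background, with an age label of 6 to 8 weeks where the protocol gives 8 weeks or more at the start of tamoxifen, and received tamoxifen as 5 daily injections of 1 mg followed by 5 days of recovery. VE-cadherin is an adhesion molecule of endothelial cells, so the Cre acts in the endothelium of the whole animal and not of the aorta alone. Tissue of 3 aortas a condition, as the protocols in the labels give it, taken from arch to bifurcation, was digested and captured with the 10x Genomics 3′ v3 chemistry. Whether the mice of a condition were pooled is not given in the labels, so each condition is 1 library and no difference below has a replicate check. Intervals are 95% exact intervals and cover counting error only. They treat each transcript or cell as independent, which transcripts of the same cell are not.

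After filtering, 10682 cells were kept in the Cept1 library, against 8640 cells in the control library, with a median of 6305.5 and 6720 unique molecular identifiers (UMIs, counted transcripts) per cell. Cept1, which encodes an enzyme of the last step of choline and ethanolamine phospholipid synthesis, was at 127.8 CPM (a gene's UMIs as a share of all UMIs in the class, scaled to the standard total) in endothelial-gated cells of the Cept1 library and 76.6 CPM in those of the control library (log2 ratio 0.74, interval 0.57 to 0.91). Over all kept cells Cept1 was at 73.5 CPM in the Cept1 library and 56.3 CPM in the control library (0.38, 0.33 to 0.44). The libraries differed in their cells. T or NK cells made up 1.75% of the Cept1 library and 6.15% of the control library, B cells 1.87% and 6.49%, macrophages 15.4% and 8.94%, and endothelial cells 10.7% and 6.24%. The 2 libraries shared 29 barcodes of kept cells, and none of these had at least 10 members in both.

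A cell that divides copies its DNA in S phase and separates the copies in mitosis, and each step draws on its own set of transcripts. E2F factors switch on the replication genes around the entry into S phase. Later the MuvB complex, with B-Myb and FOXM1, switches on the mitotic genes through a promoter element called the cell cycle homology region, while NF-Y binds CCAAT boxes in many of the same promoters. Vascular cells of a healthy adult aorta divide rarely, whereas immune cells and their precursors can divide often. In the list, 9 members serve replication and 21 serve mitosis or its control. The other 2, Stmn1 (a regulator of microtubules) and Hmgb2 (a DNA-bending chromatin protein), are high in dividing cells but also present in others.

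Promoter sequences show how the replication and mitotic members differ in ways that the choice of genes by name did not use. RefSeq promoter windows (GRCm38.p6), running from 250 bases before to 50 bases after the annotated start, were at hand for 28 of the 32 members. The motifs searched on both strands were CCAAT and the cell cycle homology region, written as TTTGAA or alternatively as TTCGAA. The E2F cores searched were GCGGGAA and its variant GCGCGAA, along with GCGGCAA and its variant GCGCCAA. Windows of Top2a and Ube2c are shown as the mitotic members with the most CCAAT matches, and those of Mcm6 and Mcm5 as replication members with E2F cores. Each is written 5′ to 3′ on the strand of its gene, with motif matches in capitals.
Top2a (chr11:99024140-99024439, minus strand): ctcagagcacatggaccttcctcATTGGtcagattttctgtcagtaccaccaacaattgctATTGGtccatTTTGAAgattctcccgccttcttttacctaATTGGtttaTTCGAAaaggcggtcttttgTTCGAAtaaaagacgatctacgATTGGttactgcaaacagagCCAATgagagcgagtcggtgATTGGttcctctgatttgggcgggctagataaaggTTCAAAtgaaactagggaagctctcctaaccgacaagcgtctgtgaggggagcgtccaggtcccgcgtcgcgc
Ube2c (chr2:164769679-164769978, plus strand): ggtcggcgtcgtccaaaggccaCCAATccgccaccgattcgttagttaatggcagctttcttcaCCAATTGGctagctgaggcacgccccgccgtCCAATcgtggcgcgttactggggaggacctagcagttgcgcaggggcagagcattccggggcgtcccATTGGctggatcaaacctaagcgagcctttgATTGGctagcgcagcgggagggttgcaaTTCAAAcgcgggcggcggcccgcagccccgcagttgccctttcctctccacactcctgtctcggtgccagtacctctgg
Mcm6 (chr1:128359656-128359955, minus strand): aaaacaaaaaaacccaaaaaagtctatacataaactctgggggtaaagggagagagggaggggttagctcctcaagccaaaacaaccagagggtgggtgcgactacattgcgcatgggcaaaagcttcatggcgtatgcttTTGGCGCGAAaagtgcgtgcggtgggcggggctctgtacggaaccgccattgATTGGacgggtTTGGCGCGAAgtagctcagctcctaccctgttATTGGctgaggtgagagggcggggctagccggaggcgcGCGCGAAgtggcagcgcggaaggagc
Mcm5 (chr8:75109259-75109558, plus strand): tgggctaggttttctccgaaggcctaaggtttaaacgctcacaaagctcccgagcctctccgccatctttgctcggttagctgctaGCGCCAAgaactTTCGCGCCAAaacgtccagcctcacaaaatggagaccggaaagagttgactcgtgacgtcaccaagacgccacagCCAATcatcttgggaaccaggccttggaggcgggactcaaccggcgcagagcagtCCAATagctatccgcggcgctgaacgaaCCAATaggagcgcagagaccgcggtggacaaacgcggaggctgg
The Top2a window held 6 CCAAT boxes and 4 cell cycle homology regions, and the Ube2c window held 6 CCAAT boxes and 1 cell cycle homology region. The Mcm6 window held 2 CCAAT boxes and 5 E2F cores, and the Mcm5 window 3 CCAAT boxes and 3 E2F cores. Matches that overlap were counted separately and share their capitals, as in the run of capitals where an E2F core on each strand overlaps. Neither Mcm window held a cell cycle homology region, and neither mitotic window held an E2F core.

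CCAAT was found in the windows of 24 of the 28 members (85.7%), against 37.4% of all 32851 RefSeq windows of this length. The cell cycle homology region was found in 14 of 18 mitotic members (77.8%) and in 2 of 9 replication members (22.2%), against 19.2% of all windows. E2F cores went the other way, with 6 of 9 replication members (66.7%) and 3 of 18 mitotic members (16.7%), against 9.57% of all windows. CCAAT and a cell cycle homology region stood together in 13 of 18 mitotic members (72.2%) and in 7.52% of all windows. Such a match describes the letters of the window and not a binding site.

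Most cells held few of these transcripts and a small set held many. No member was detected in 3674 cells of the Cept1 library and in 2462 cells of the control library, and 1 or 2 members were detected in 5017 and 3848 cells. Between 7 and 9 members were seen in 66 and 98 cells, between 10 and 20 in 42 and 61 cells, and between 21 and 32 in 58 and 60 cells. Cell numbers thus dropped steeply up to about 9 members and then stayed flat to the full set. At least 10 members were detected in 100 cells of the Cept1 library (0.94%, interval 0.76 to 1.14) and in 121 cells of the control library (1.40%, 1.16 to 1.67). The limit of 10 was set after this distribution had been seen. With every cell thinned to 2000 UMIs, 44 of 9103 cells (0.48%, 0.35 to 0.65) of the Cept1 library and 45 of 7209 cells (0.62%, 0.46 to 0.83) of the control library had at least 10 members. The intervals were apart at full depth and overlapped in thinned cells. These cells held 42.5% of all member UMIs in the Cept1 library, against 51.1% in the control library. They were deep, with a median of 15243.5 and 19251 UMIs per cell, against 6249.5 and 6617 UMIs in the cells below 10 members.

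**Figure D1:**
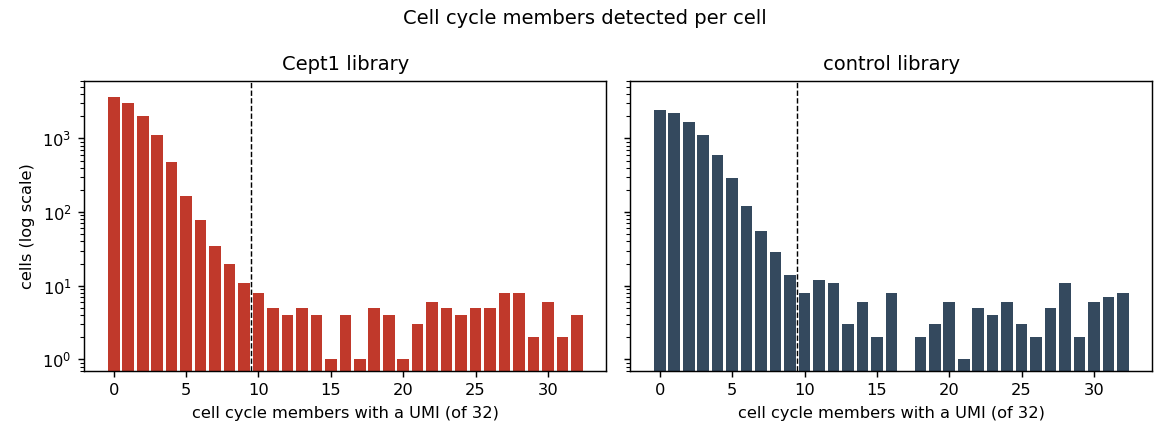
Number of kept cells (log scale) by the number of the 32 cell cycle members with at least 1 UMI, in the Cept1 library (left) and the control library (right). The dashed line marks the limit of 10 members, to the right of which lie 100 cells of the Cept1 library and 121 cells of the control library.

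The share with at least 3 members also varied with depth. It was 18.6% in the Cept1 library, against 26.97% in the control library at full depth. Among fibroblasts of the Cept1 library it was 1.03% in cells below 5000 UMIs and 61.7% in cells of 20000 UMIs or more, and among those of the control library it was 3.08% and 61.1%. With every cell thinned to 2000 UMIs, 225 of 9103 cells (2.47%, 2.16 to 2.81) had at least 3 members in the Cept1 library and 294 of 7209 cells (4.08%, 3.63 to 4.56) in the control library. Thinning left out 1579 and 1431 shallower cells. Weighted to the class shares of the control library, the thinned share of the Cept1 library was 3.37%, against 4.05% in the control library. Under the same weighting the share with at least 10 members at full depth was 1.39% in the Cept1 library, against 1.38% in the control library. Both weighted comparisons leave out the erythroid class, which had no cell in the Cept1 library. They give more weight to classes with few cells there, and no interval was computed. Examples are 13 of 187 T or NK cells, 8 of 37 thymocyte-like T cells and 1 of 9 immature neutrophils with at least 10 members.

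Over all kept cells, the 32 members summed to 464.5 CPM in the Cept1 library, against 614.6 CPM in the control library (log2 ratio -0.40, -0.42 to -0.38). Of the 32, 31 were lower and 1 was higher in the Cept1 library, with a median log2 ratio of -0.47, against -0.03 over all 19560 genes with at least 20 UMIs. Of the 32, 0 passed a log2 ratio of 1 in either direction, where 4.37% of all genes did so downward and 1.73% upward. Within the cells of at least 10 members, 15 members were higher and 17 lower, and the median was -0.01. In the cells below 10 members, 25 were lower and 7 higher, and the median was -0.17. Cells chosen for holding many members are high in them by that choice, so the ratio within them is a description only. The same holds here and below for the cells below 10 members, which are low in members by that choice. The summed mitotic members were at 125.8 CPM in the Cept1 library, against 182.1 CPM in the control library over all kept cells (log2 ratio -0.53, -0.57 to -0.50). In the cells below 10 members their sum was lower by about as much (-0.51, -0.59 to -0.44). Cenpa, a centromere gene, held 870 of the 2444 and 1501 of the 3365 mitotic UMIs there (-0.84, -0.96 to -0.71). The anaphase-promoting complex genes were also lower (-0.83, -1.17 to -0.51). The cyclins and Cdk1 (-0.07, -0.37 to 0.23) and the mitotic kinases and checkpoint (-0.09, -0.32 to 0.15) had intervals that included 0. The replication members were at -0.15 (-0.18 to -0.11) over all kept cells and near 0 below 10 members, at 146.3 and 146.5 CPM.

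The members of replication licensing, Mcm2, Mcm3, Mcm5, Mcm6 and Mcm7, encode subunits of the helicase that is loaded at replication origins. Mcm6 was the most counted, with 20.8 CPM in the Cept1 library, against 24.0 CPM in the control library (log2 ratio -0.20, -0.30 to -0.11). Mcm7 had 11.6 and 17.3 CPM (-0.57, -0.70 to -0.45), the lowest ratio of the 5. Licensing transcripts were spread over many cells: only 14.6% of Mcm6 UMIs in the Cept1 library, against 25.4% in the control library, lay in cells with at least 10 of the other 31 members. Mcm5 was the most concentrated of the 5, at 41.0% and 52.0%.

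Pcna, the sliding clamp of the replicative polymerases (ENSMUSG00000027342, chromosome 2, 132249162 to 132253314 on the minus strand of GRCm38), was detected in 33.1% of cells of the Cept1 library and 33.9% of those of the control library. It was the 1 member with a higher level in the Cept1 library, at 80.2 CPM against 75.4 CPM (log2 ratio 0.09, 0.04 to 0.14), and the least concentrated one, at 10.4% and 15.6%. Ribonucleotide reductase, which makes deoxynucleotides, split into its subunits. Rrm1, the large subunit, was at 22.7 and 24.7 CPM with 17.3% and 23.2% of its UMIs in cells with at least 10 other members. Rrm2, the small subunit whose protein is limited to S phase, was at 4.72 and 7.48 CPM with 77.7% and 71.8% there. Tyms, which makes thymidylate, stood near Rrm1, at 10.3 and 11.7 CPM and 23.9% and 35.4%. Rrm2 was thus the replication member whose UMIs were gathered like those of the mitotic members.

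Among the cyclins, Ccna2 acts from S phase on and Ccnb1 and Ccnb2 drive Cdk1 into mitosis. Ccna2 had 264 UMIs in the Cept1 library, against 341 in the control library, and 89.4% and 89.7% of them lay in cells with at least 10 other members. Cdk1, the mitotic kinase itself, had 359 and 427 UMIs (log2 ratio -0.28, -0.49 to -0.08). Ccnb2 was the most counted of the 3 cyclins, with 308 and 490 UMIs (-0.70, -0.91 to -0.49), and Ccnb1 had 147 and 236 UMIs (-0.71, -1.02 to -0.41). The 4 genes were detected in few cells, from 0.64% for Ccnb1 in the Cept1 library to 1.62% for Ccnb2 in the control library. At least 77.9% of their UMIs in each library fell in cells with at least 10 other members.

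Of the mitotic kinases and the spindle checkpoint, Bub1, a checkpoint kinase at the kinetochore, had 107 UMIs in the Cept1 library, against 136 in the control library, and was the most concentrated member, at 94.4% and 95.6%. Birc5 (survivin), a subunit of the chromosomal passenger complex with Aurkb, was the most counted of the group with 516 and 715 UMIs, and 89.7% and 91.6% of them lay in cells with at least 10 other members. Plk1, which acts from mitotic entry to exit, had 133 and 150 UMIs, and its interval was the only one among the lower members to include 0 (log2 ratio -0.21, -0.55 to 0.14). Aurka, the centrosomal kinase, was at -0.66 and Aurkb at -0.50, and Bub1b, the checkpoint protein BubR1, at -0.32.

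Cdc20 activates the anaphase-promoting complex, and Ube2c is the ubiquitin-conjugating enzyme that works with it. Ube2c had 677 UMIs in the Cept1 library, against 908 in the control library (log2 ratio -0.46, -0.60 to -0.31), of which 92.8% and 86.6% lay in cells with at least 10 other members. Outside the cells with at least 10 members, 49 and 118 Ube2c UMIs remained. Cdc20 had 225 and 357 UMIs (-0.70, -0.94 to -0.45) and was less concentrated, at 67.1% and 73.7%.

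Of the centromere genes, Cenpf and Cenpe, which serve the outer kinetochore, were found mostly in cells with many members, at 89.2% and 91.3% for Cenpf and 78.9% and 82.5% for Cenpe. Cenpa, the histone H3 variant that marks centromeres (ENSMUSG00000029177, chromosome 5, 30666777 to 30674830 on the plus strand), was spread more widely. It was detected in 6.98% of cells of the Cept1 library and 12.03% of those of the control library, and only 29.5% and 27.4% of its UMIs lay in cells with at least 10 other members. Its ratio was the lowest of the 32 (1235 and 2069 UMIs, log2 ratio -0.78, -0.88 to -0.67). T or NK cells held 95 and 517 of the Cenpa UMIs and B cells 95 and 448, and both classes made up a smaller part of the Cept1 library. Within them Cenpa was lower as well, at a log2 ratio of -0.70 (-1.03 to -0.38) in T or NK cells and -0.58 (-0.91 to -0.26) in B cells.

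The spindle genes Tpx2 and Nusap1, which organise microtubules around chromatin, had 426 and 487 UMIs (log2 ratio -0.22) and 579 and 757 UMIs (-0.42) in the Cept1 and control libraries. Kif11, the motor that separates the spindle poles, had 409 and 612 UMIs (-0.61), and Kif20b, a motor of cytokinesis, 366 and 499 (-0.48). Kif20b was the more spread of the 2 motors, at 52.7% and 47.3%, against 85.3% and 83.7% for Kif11. Top2a, the topoisomerase that untangles sister chromatids (ENSMUSG00000020914, chromosome 11, 98992943 to 99024189 on the minus strand), had 1352 and 2019 UMIs (-0.61, -0.71 to -0.51), and 90.3% and 89.8% of them lay in cells with at least 10 other members. Stmn1 and Hmgb2 had 2764 and 3879 UMIs and 9890 and 14174 UMIs. Hmgb2 was detected in 29.1% and 37.3% of all cells.

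Mki67, which coats mitotic chromosomes and is the usual marker of dividing cells (ENSMUSG00000031004, chromosome 7, 135689784 to 135716361 on the minus strand), was detected in 254 cells of the Cept1 library and 237 of the control library. At least 10 members were detected in 86 and 97 of these cells, and at most 2 members in 48 and 28. Macrophages were 144 of the 254 and 77 of the 237. A Mki67 UMI was seen in 8.77% and 9.97% of macrophages, a Top2a UMI in 4.02% and 4.53%, and at least 10 members in 2.19% and 2.33%. In smooth muscle cells, which had a higher median depth (10484.5 and 14902 UMIs, against 8148 and 10422 UMIs in macrophages), a Mki67 UMI was seen in 0.39% and 0.73%. A single Mki67 UMI and a full set of members thus picked out different numbers of macrophages.

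**Figure D2:**
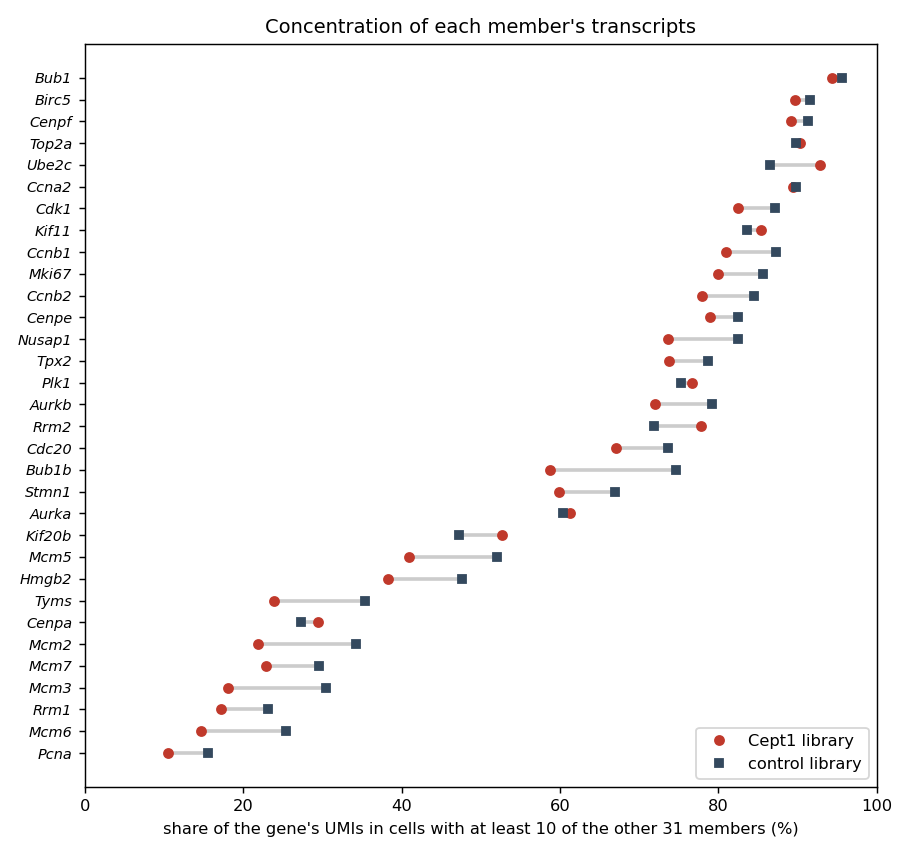
Share of each member's UMIs that lay in cells with at least 10 of the other 31 members (x axis, percent), for the Cept1 library (circles) and the control library (squares), with members ordered by the mean of both. Bub1, Birc5, Cenpf and Top2a stand near 90% or above in both libraries, and Pcna, Mcm6, Rrm1 and Mcm3 at or below 30.4%.

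The cells with at least 10 members covered a range from replication to mitosis. Replication members made up at least 50% of the replication and mitotic UMIs in 35 of the 100 cells of the Cept1 library and in 43 of the 121 cells of the control library. The median share was 24.8% and 29.6%, and the shares ran from 0% to 96.0% and from 0% to 95.8%. All of Ccnb1, Cdc20 and Plk1, which peak around mitosis, were detected together in 24 and 30 cells, and at least 1 of them in 67 and 77 cells. Cells with few mitotic UMIs and many replication UMIs, and the reverse, were present in both libraries.

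**Figure D3:**
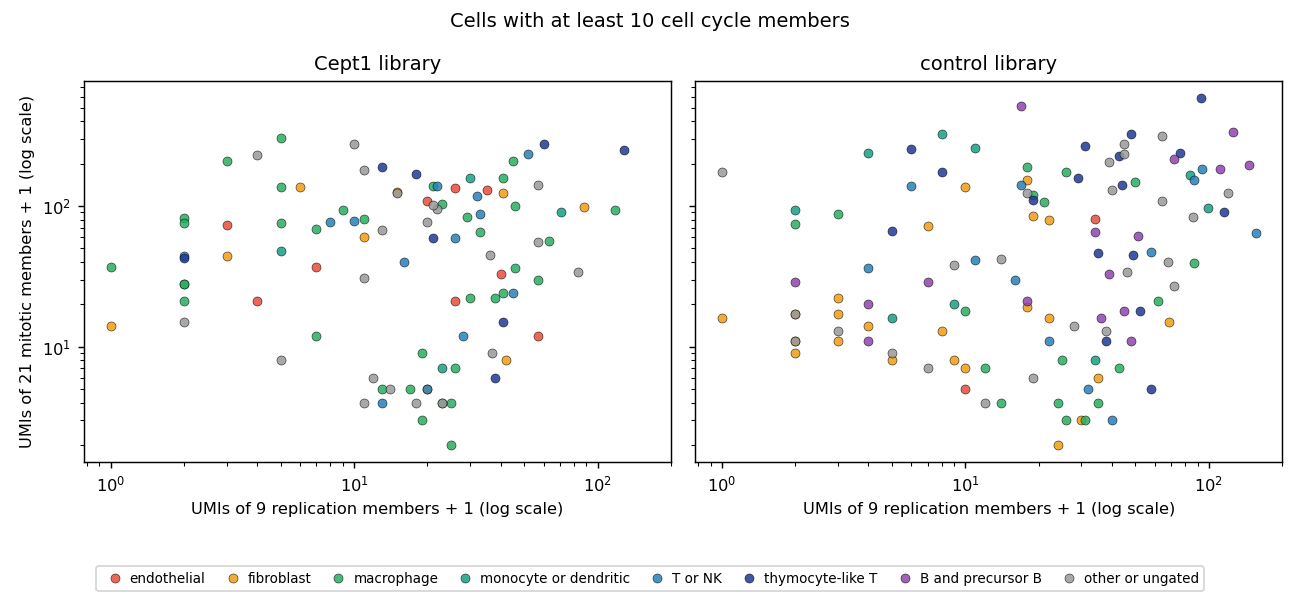
Each point is a cell with at least 10 members, with the UMIs of the 9 replication members plus 1 on the x axis and those of the 21 mitotic members plus 1 on the y axis (log scales), coloured by class, for the Cept1 library (left) and the control library (right). Macrophages are 36 of the 100 points on the left and 18 of the 121 on the right, and B or precursor B cells are only on the right.

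Cells were assigned to classes by the UMIs of marker genes that hold no member of the list, and 10143 and 7941 cells received a class. All gate markers were higher than in the other cells of the library in 10 of the 12 classes described. In neutrophils 5 of 8 were, and in thymocyte-like T cells 6 of 9. For lymphatic endothelial and thymocyte-like T cells these are the markers of the parent class, endothelial and T or NK. Cells chosen by these markers are high in them by that choice, so the counts are a description and no check of the classes. Thymocyte-like T cells are T cells with Rag1, Rag2, Dntt, Arpp21 or Ptcra, genes of developing T cells in the thymus. Their presence in a dissected aorta, 37 cells in the Cept1 library, against 81 in the control library, bears on every value for all cells, because they held 6.37% and 13.5% of all member UMIs in the 2 libraries.

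Thymocyte-like T cells had the highest member level of the 12 classes, 8696 CPM in the Cept1 library, against 10041 CPM in the control library. At least 10 members were detected in 8 of 37 cells (21.6%, 9.83 to 38.2) and in 17 of 81 cells (20.99%, 12.7 to 31.5). The intervals overlapped almost wholly. In the other direction stood mature neutrophils, which do not divide: 0 of 123 cells, which allows a share of up to 2.44%, and 0 of 51 cells, which allows up to 5.88%. Their summed level of 1030 and 1276 CPM came from the broad genes, and without Stmn1, Pcna and Hmgb2 it was 62.7 and 70.5 CPM.

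The share with at least 3 members was not confined to classes rich in cells of at least 10 members. It was 5.69% in neutrophils of the Cept1 library and 11.8% in those of the control library at medians of 4198 and 4489 UMIs, and 16.6% and 29.9% in smooth muscle cells. Thinned to 2000 UMIs, smooth muscle cells stood at 0.41% (3 of 730) in the Cept1 library, against 0.63% (4 of 636) in the control library. Neutrophils stood at 1.65% (2 of 121, 0.20 to 5.84) and 4.08% (2 of 49, 0.50 to 14.0), and the intervals overlapped. At full depth the share was lower in the Cept1 library in 11 of the 12 classes, and the median depth was also lower there in 11 of the 12. In thinned cells it was lower in 8 classes and higher in 4. The intervals stood apart in 1 class, the fibroblasts.

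**Figure D4:**
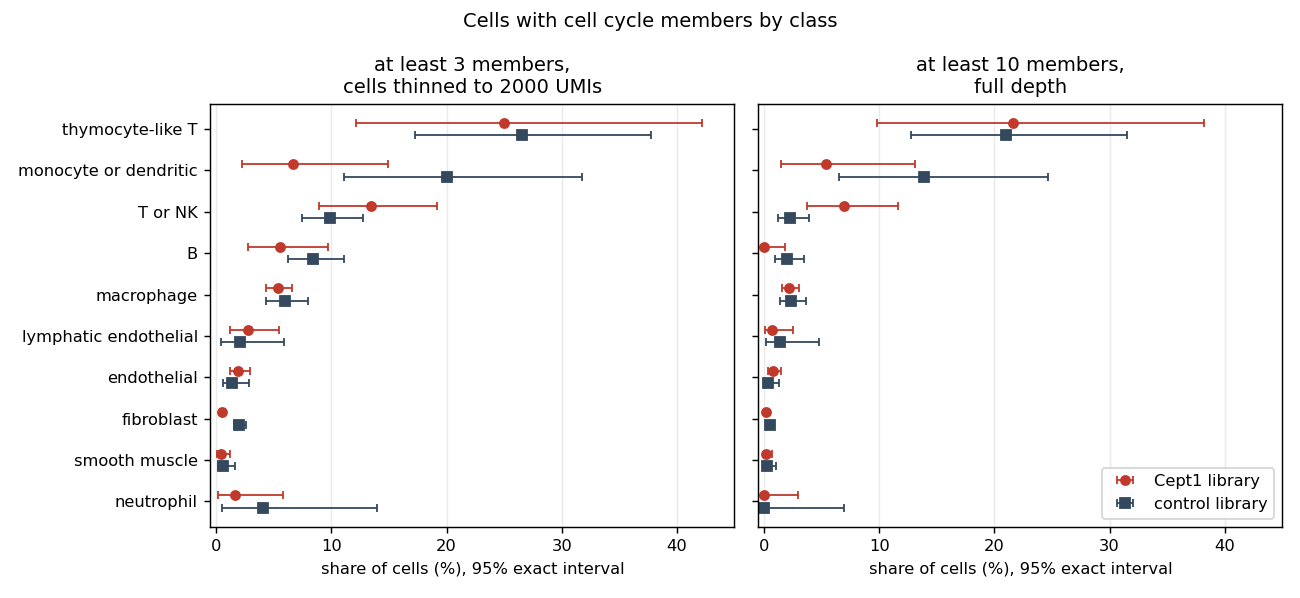
Share of cells with at least 3 members after thinning to 2000 UMIs (left panel) and with at least 10 members at full depth (right panel), for 10 classes with 95% exact intervals, in the Cept1 library (circles) and the control library (squares). In thinned cells only the fibroblast intervals are apart, at 0.52% and 2.02%.

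In endothelial cells, the cells in which the Cre acts, the mitotic members were higher in the Cept1 library while the replication members were level. The 21 mitotic members summed to 797 UMIs (92.1 CPM) in the Cept1 library and 222 UMIs (42.0 CPM) in the control library, a log2 ratio of 1.13 (0.92 to 1.35). The 9 replication members were at 163.5 and 155.8 CPM (0.07, -0.06 to 0.19). Of the 28 members that reached 20 UMIs in endothelial cells, 22 were higher. A log2 ratio of 1 was passed upward by 10 of them, where 2.17% of all genes did so, and downward by 0, where 2.82% did. The median member was at 0.33 and the median gene at -0.01. Over members with at least 100 UMIs the median was 0.078, and its sign turned in thinned cells (-0.048) and without cells that had a Ptprc UMI (-0.021).

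By role, the summed log2 ratio in endothelial cells was 1.45 for the mitotic kinases and checkpoint and 1.35 for the cyclins and Cdk1. It was 1.18 for the anaphase-promoting complex genes, 0.90 for the centromere genes and 0.27 for the spindle genes and motors. The spindle sum includes Stmn1, which is not among the mitotic members. Stmn1 (log2 ratio 0.13) held 424 of the 569 UMIs of this sum in the Cept1 library and 236 of 288 in the control library. The other spindle genes were at 1.41 (Kif20b), 1.01 (Nusap1), 0.29 (Tpx2) and 0.11 (Kif11), and the intervals of Tpx2 and Kif11 included 0. Cenpf had 55 UMIs in the Cept1 library, against 4 in the control library (log2 ratio 3.07, 1.63 to 5.00), Ccna2 had 32 and 3 (2.70, 1.03 to 5.06) and Birc5 had 52 and 6 (2.40, 1.19 to 3.91). Ube2c had 61 and 8 UMIs (2.22, 1.15 to 3.49). These 4 genes were each seen in few cells, for example Birc5 in 9 and 3 cells. Top2a had 102 and 23 UMIs and Mki67 62 and 14, each with a log2 ratio of 1.44, while Ccnb1 had 14 UMIs in the Cept1 library, against 0 in the control library. Pcna (0.02, -0.19 to 0.23), Mcm3 (-0.19), Tyms (-0.24) and Hmgb2 (-0.08, -0.28 to 0.12) had intervals that included 0. Rrm1 was at 0.44 (0.10 to 0.79).

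Most mitotic UMIs of the endothelial cells in the Cept1 library lay in a handful of cells. At least 10 members were detected in 9 of 1140 endothelial cells of the Cept1 library (0.79%, 0.36 to 1.49) and in 2 of 539 of the control library (0.37%, 0.04 to 1.33), and the intervals overlap. The 9 cells held 560 of the 797 mitotic UMIs, between 11 and 133 UMIs each, and the 2 cells held 84 of the 222. In the endothelial cells below 10 members, the mitotic members were at 27.9 and 26.2 CPM (log2 ratio 0.09, -0.22 to 0.40). There the sum of all 32 members was lower in the Cept1 library (-0.21, -0.31 to -0.12), against 0.25 (0.16 to 0.34) in the whole class. The thinned share with at least 3 members was 1.94% (1.20 to 2.95) and 1.41% (0.57 to 2.87).

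The 9 endothelial cells of the Cept1 library had 14, 16, 19, 22, 23, 24, 27, 29 and 32 members. In 7 of them the arterial genes Bmx, Gja5, Cytl1 and Gkn3 had more UMIs than the capillary genes Gpihbp1, Cd36, Fabp4 and Rgcc, and in 2 the reverse held. In the control library both cells, with 13 and 25 members, had more arterial UMIs. The same count over all endothelial cells is not given, so the arterial lead is not read as a trait of these cells. A Cept1 UMI was present in 5 of the 9 cells and in 1 of the 2, against 50.6% and 44.0% of all endothelial cells of the Cept1 and control libraries. Ptprc, which encodes the leukocyte protein CD45, was present in 3 of the 9 cells and in 0 of the 2. The cell with 32 members had 43253 UMIs in all, 25 Ptprc UMIs and 121 UMIs of leukocyte markers beside 265 of endothelial markers. Without cells that had a Ptprc UMI, the share with at least 10 members was 0.54% (0.20 to 1.17) and 0.39% (0.05 to 1.41), the mitotic ratio was 0.46 (0.22 to 0.70) and the sum of all members was at -0.04 (-0.14 to 0.05). With every cell weighted equally the mitotic ratio was 0.61, and in cells thinned to 2000 UMIs it was 0.69. Over all endothelial cells, the 7 macrophage markers summed to 89.0 CPM in the Cept1 library, against 54.5 CPM in the control library, and all 7 were detected in both. The T or NK markers (11.6 and 26.1 CPM) and the B cell markers (11.4 and 28.0 CPM) were lower in the Cept1 library, as was the share of cells with a Ptprc UMI (2.46% and 5.38%). Whether the cells of at least 10 members are doublets with leukocytes, and the part of macrophage RNA in the class, was not tested.

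**Figure D5:**
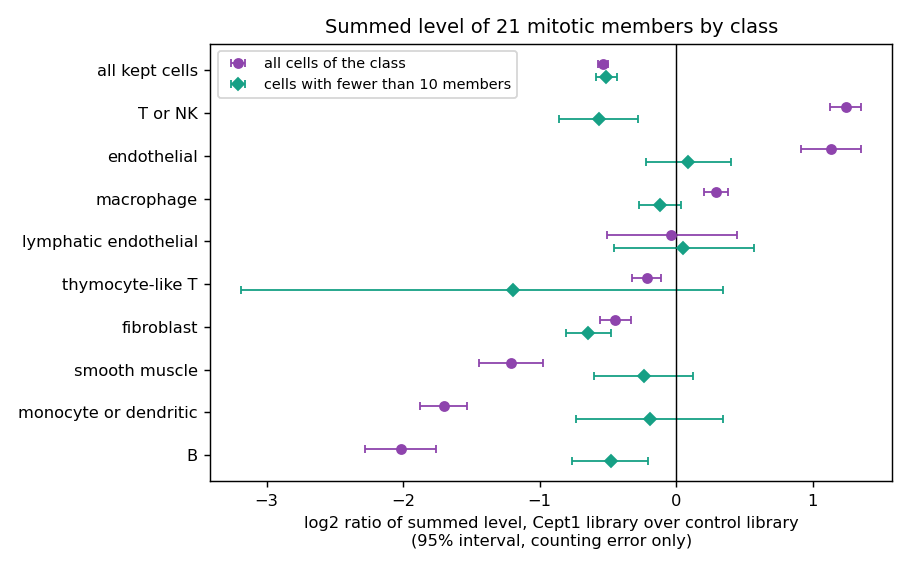
Log2 ratio of the summed level of the 21 mitotic members in the Cept1 library over the control library, for all kept cells and 9 classes, over all cells of the class (circles) and over cells with fewer than 10 members (diamonds), with 95% intervals for counting error. Endothelial cells stand at 1.13 with all cells and at 0.09 without the cells of at least 10 members, and T or NK cells at 1.24 and -0.56. Cells were left out by their number of the same members, so the diamonds are a description only. In the T or NK diamond, 3 centromere genes hold 63 of the 117 and 457 of the 615 mitotic UMIs.

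T or NK cells also had higher mitotic levels in the Cept1 library. The mitotic members were at 782.4 CPM in the Cept1 library, against 330.8 CPM in the control library (log2 ratio 1.24, 1.13 to 1.36), and 20 of 32 members passed a log2 ratio of 1 upward, where 5.84% of all genes did, and 0 downward, where 3.88% did. The median member was at 1.40 and the median gene at 0.07. Tpx2 (41 and 24 UMIs, 2.52), Cdk1 (41 and 25 UMIs, 2.46) and Nusap1 (64 and 40 UMIs, 2.43) led the list, from 187 and 531 cells. At least 10 members were detected in 13 cells (6.95%, 3.75 to 11.6) and 12 cells (2.26%, 1.17 to 3.91). In the T or NK cells below 10 members, the sum of the mitotic members was lower in the Cept1 library (-0.56, -0.86 to -0.28). The 3 centromere genes, Cenpa among them, held 63 of the 117 and 457 of the 615 mitotic UMIs there (-1.03, -1.43 to -0.65). This lower sum is thus not read as a drop of the mitotic members in general. Over the whole class, Cenpa was spread over 47 and 246 T or NK cells and went the other way from the mitotic sum (log2 ratio -0.70).

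In B cells the members were lower in the Cept1 library. At least 10 members were detected in 0 of 200 B cells of the Cept1 library, which allows a share of up to 1.50%, and in 11 of 561 of the control library (1.96%, 0.98 to 3.48). The mitotic members were at 122.2 and 493.9 CPM (log2 ratio -2.01, -2.28 to -1.76), and 23 of 30 members passed a log2 ratio of 1 downward, where 5.74% of all genes did, and 0 upward, where 4.62% did. The median was -3.30, or -2.02 with the 9 members that had no UMI in the Cept1 library set to 3 UMIs, against -0.11 over all genes. Ube2c had 0 and 125 UMIs, Birc5 0 and 70, Mki67 1 and 130, and Top2a 5 and 236. The 11 cells of the control library held 1163 of its 1698 mitotic UMIs, and 1 of them held 516. Below 10 members the mitotic ratio was -0.48 (-0.77 to -0.20). The sum of all members was at -1.40 (-1.52 to -1.27), and its size varied with the processing. It was smaller with every cell weighted equally and in thinned cells. It was larger without Stmn1, Pcna and Hmgb2 (-1.77, -1.98 to -1.58) and under stricter limits of genes and mitochondrial share. Precursor B cells, with 1 cell in the Cept1 library, against 16 in the control library, of which 0 and 5 had at least 10 members, allow no comparison.

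Monocytes or dendritic cells were few, 75 in the Cept1 library, against 65 in the control library, and rich in members. At least 10 were detected in 4 cells (5.33%, 1.47 to 13.1) and 9 cells (13.8%, 6.53 to 24.7). The mitotic members were at 388.6 and 1265 CPM (log2 ratio -1.70, -1.88 to -1.53), and 24 of 30 members passed a log2 ratio of 1 downward, where 5.35% of all genes did, and 0 upward, where 3.88% did. The median member was at -1.37 and the median gene at -0.03. Cdc20 had 2 and 44 UMIs (-4.33), Ccnb1 6 and 49 (-2.90) and Cenpf 10 and 73 (-2.74). The 4 and 9 cells held 300 of 358 and 1212 of 1276 mitotic UMIs, and the other cells of the class were at -0.19 (-0.73 to 0.34).

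Smooth muscle cells rarely held the set: 1 of 764 cells in the Cept1 library and 2 of 685 in the control library had at least 10 members. Those cells carried 94 of 202 and 437 of 599 mitotic UMIs. The mitotic members were at 24.5 and 56.6 CPM (log2 ratio -1.21, -1.45 to -0.98), and 12 of 27 members passed a log2 ratio of 1 downward, where 2.60% of all genes did, and 0 upward, where 1.62% did. The median member was at -0.98 and the median gene at -0.03. Kif11 had 4 and 29 UMIs (-2.50) and Cdk1 5 and 29 (-2.18). In the cells below 10 members the mitotic ratio was -0.23 (-0.60 to 0.13). The single cell of the Cept1 library had 15 Ptprc UMIs, and of the 2 cells of the control library 1 had 12 and 1 had 0. Ptprc was detected in 3.66% of smooth muscle cells of the Cept1 library and 5.84% of those of the control library. The 7 macrophage markers summed to 81.0 and 199.2 CPM in this class, all detected in both libraries, the 9 T or NK markers to 15.4 and 20.03 CPM and the 7 B cell markers to 24.1 and 21.2 CPM. Without cells that had a Ptprc UMI the mitotic ratio was -1.92 (-2.26 to -1.60), and with a gate of 80% it was -2.37 (-2.71 to -2.05). Both values rest on 1 or 2 cells of the control library. The Ptprc exclusion left 0 and 1 cells of at least 10 members, and that 1 cell held 314 mitotic UMIs. Smooth muscle markers made up 76.3% of marker UMIs in the Cept1 cell, below the gate of 80%, and 86.2% and 88.9% in the control cells. The part of macrophage RNA in these values was not tested.

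Fibroblasts, the largest class with 5562 cells in the Cept1 library, against 4301 in the control library, had lower mitotic levels in the Cept1 library both with and without the cells of at least 10 members. Such cells were 9 (0.16%, 0.07 to 0.31) and 23 (0.53%, 0.34 to 0.80). The mitotic members were at 33.6 and 45.8 CPM (log2 ratio -0.45, -0.56 to -0.33), and below 10 members at 15.4 and 24.0 CPM (-0.64, -0.81 to -0.48). The size of the mitotic ratio varied with the processing: it was -1.26 with every cell weighted equally, -1.37 (-1.63 to -1.11) in cells thinned to 2000 UMIs, and -0.20 (-0.32 to -0.07) in cells of 1000 or more genes and up to 5% mitochondrial UMIs. The replication members differed less, at 117.5 and 128.2 CPM (-0.13, -0.19 to -0.06). Of the 32 members 27 were lower. A log2 ratio of 1 was passed upward by 0, where 1.34% of all genes did so, and downward by 3, where 3.51% did: Aurka (8 and 26 UMIs, -1.72), Bub1 (5 and 16 UMIs, -1.70) and Ube2c (52 and 108 UMIs, -1.07). The median member was at -0.44 and the median gene at -0.05. Pcna (1537 and 1522 UMIs, -0.01) and Mcm6 (391 and 368 UMIs, 0.07) had intervals that included 0.

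Leukocyte transcripts in fibroblasts differed between the libraries for some marker lists and less so for others. Ptprc was detected in 2.62% of fibroblasts of the Cept1 library and 7.44% of those of the control library. The 9 T or NK markers summed to 10.1 and 45.4 CPM and the 7 B cell markers to 10.2 and 45.6 CPM in fibroblasts, all of them detected in both libraries, while the 7 macrophage markers were at 115.0 and 115.7 CPM. The 8 monocyte or dendritic markers went the other way, at 105.5 and 94.2 CPM, and the 8 neutrophil markers were at 28.4 and 34.3 CPM. Of the fibroblasts with at least 10 members, 2 of 9 and 12 of 23 had a Ptprc UMI. In thinned fibroblasts without Ptprc, 0.44% (0.26 to 0.69) and 1.22% (0.86 to 1.68) had at least 3 members, and in those with Ptprc 4 of 128 (3.12%) and 29 of 242 (11.98%). The intervals of the fibroblasts without Ptprc did not overlap, but they cover counting error only. A cell without a Ptprc UMI can carry other leukocyte transcripts. For example, a fibroblast of the control library with 11 members and 0 Ptprc UMIs had 13 UMIs of leukocyte markers. The part of leukocyte RNA in these values was not tested.

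Macrophages held the largest number of cells with at least 10 members in the Cept1 library, 36 of 1642 (2.19%, 1.54 to 3.02), against 18 of 772 in the control library (2.33%, 1.39 to 3.66). Their summed member level was 774.0 and 753.7 CPM (log2 ratio 0.04, -0.01 to 0.08). The mitotic members were at 228.4 and 186.6 CPM (0.29, 0.20 to 0.38) and, below 10 members, at -0.12 (-0.27 to 0.03). Cdc20 (73 and 21 UMIs, 1.02, 0.31 to 1.80) was the 1 of 32 members past a log2 ratio of 1 upward, where 2.24% of all genes were, and 0 were past it downward, where 2.65% were. Tpx2 (146 and 48 UMIs, 0.83), Cenpf (155 and 53 UMIs, 0.77) and Ube2c (201 and 75 UMIs, 0.65) also had intervals above 0, and Mki67 (510 and 267 UMIs, 0.16, -0.06 to 0.38) did not. The median member was at 0.17 and the median gene at 0.00.

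In lymphatic endothelial cells the levels were alike within counting error. Of 289 cells in the Cept1 library, against 149 in the control library, 2 and 2 had at least 10 members, and the mitotic members were at 29.3 and 30.01 CPM (log2 ratio -0.04, -0.51 to 0.45). Of 12 members tested, 0 passed a log2 ratio of 1, where 1.61% of all genes did so upward and 2.52% downward. In thymocyte-like T cells 1 of 32 members did so downward, Bub1b (15 and 83 UMIs, -1.21), where 5.40% of all genes did, and 0 upward, where 3.57% did. In neutrophils 1 of 3 members did so downward, where 13.1% of all genes did, and 0 upward, where 5.25% did. In mast cells 1 of 3 did so upward, where 6.88% of all genes did, and 0 downward, where 6.39% did. In Schwann cells 0 of 4 did so, where 5.07% of all genes did so upward and 6.61% downward.

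Beyond the 32 members, 87 other cell cycle genes were measured over all kept cells, given here by role. The 22 other replication genes were all lower in the Cept1 library, with a median log2 ratio of -0.36 and 0 past a log2 ratio of 1, where 4.37% of all genes were so downward and 1.73% upward. Among them, Pola1, the catalytic subunit of the polymerase that lays down primers, had 2772 and 2723 UMIs (-0.01), and Ung, which removes uracil from DNA, had 93 and 178 UMIs (-0.97, -1.35 to -0.60). Slbp, the histone stem-loop binding protein, was at -0.13 and Uhrf1, a maintenance factor of DNA methylation, at -0.88. Of the 36 other mitotic genes 33 were lower, with a median of -0.32, and 1 was past a log2 ratio of 1 downward, beside the same 4.37% of all genes: Ndc80, a kinetochore subunit (269 and 542 UMIs, -1.04, -1.26 to -0.83). Smc4, a condensin subunit, was at -0.56, Cenpm at -0.996, and Pttg1 (securin), with 1.33% and 1.67% of its UMIs in cells of at least 10 members, at 0.00 (-0.06 to 0.06).

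The genes that govern entry into the cycle moved less as a group. Their ratios are also over all kept cells, and the mix of classes differed between the libraries. Values within classes are not given. Of 9 G1 cyclins and kinases, 5 were lower, with a median of -0.13. Ccnd1, which links growth signals to the cycle, was higher in the Cept1 library (61.4 and 46.6 CPM, log2 ratio 0.40, 0.34 to 0.46), and Ccnd2 (-0.20), Ccnd3 (-0.27) and Ccne2 (-0.72) were lower. Of 10 inhibitors and pocket proteins 6 were lower, with a median of -0.21. Cdkn1a (p21) was at 138.1 and 124.1 CPM (0.16, 0.11 to 0.20), Rb1 at 0.11, Cdkn2d at -0.34, and Cdkn2a had 64 and 96 UMIs (-0.62, -1.10 to -0.15). Of the 10 E2F, Myb and FoxM1 factors 9 were lower, with a median of -0.20. E2f2 had 265 and 504 UMIs (-0.96, -1.18 to -0.74), E2f8 122 and 175 (-0.55), and the broadly expressed E2f4 (-0.16) and Lin54 (-0.07) were closer to 0.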

How the data were processed

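The authors deposited UMI counts, without normalization, by gene and by barcode for 2 libraries. Per the file headers, Cell Ranger 7.2.0 produced them, and the submitters' notes on processing also name Seurat and mm10. Which annotation was used, and whether reads in introns or strand counted, is not stated in the labels. The libraries held 95735360 UMIs over 17728 barcodes (Cept1) and 88220524 over 14349 (control). Barcodes passed with 500 or more genes and a mitochondrial share of UMIs up to 10%, which left 11168 and 8729. Doublets were scored with Scrublet (scanpy 1.11.5, expected rate 8%) and removed above 0.245, the automatic threshold of the Cept1 library, in both libraries, since the automatic threshold of the control library called 1 cell; this choice followed the scores. It removed 486 cells (4.35%) and 89 cells (1.02%). The barcodes outside the filter held 6 and 10 with at least 10 members.

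A cell received a class with at least 3 of its markers and at least 60% of its UMIs over all class markers, sub-classes needed 2 further markers, and 539 and 699 cells stayed without a class. Classes with at least 30 cells in each library were described. UMIs were summed per class and divided by the class total (CPM), and a log2 ratio has the Cept1 library on top and carries an exact Clopper-Pearson interval of the split of the UMIs; shares have exact binomial intervals. Genes with at least 20 UMIs entered the counts, and a log2 ratio of at least 1 in size was called. A count of 0 is given with the limit that 3 counts allow. With 1 library per group no test was possible. Cells were thinned to 2000 UMIs with seed 1. TMM factors came from edgeR 4.0.16 in R 4.3.3; other steps used Python 3.11.15, numpy 2.4.6, scipy 1.17.1 and pandas 2.3.3. The ratio step was tested on simulated class totals with independent counts. That setting does not cover transcripts gathered in a few cells, as the mitotic members were here. Gene coordinates came from GENCODE on GRCm38 and promoter windows from RefSeq on GRCm38.p6.

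The members, markers and lists were chosen with earlier results of these data known. All members are named; of the other cell cycle lists, the 2 genes with the most UMIs and the 2 with the largest ratio among those with at least 100 UMIs. Single members and cells named for a class were chosen after their values were seen.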

Additional observations from a re-analysis of the deposited data

Results flagged for a closer look

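The summed level of the 21 mitotic members, in the Cept1 library over the control library, went in opposite directions in different classes. The log2 ratio was 1.24 in T or NK cells and 1.13 in endothelial cells, and it was -1.21 in smooth muscle cells, -1.70 in monocytes or dendritic cells and -2.01 in B cells. The difference between classes was not tested, since each condition is 1 library. In each of these classes most of the mitotic UMIs of at least 1 library lay in the cells with at least 10 members, which numbered 13 and 12 in T or NK cells, 9 and 2 in endothelial cells, 1 and 2 in smooth muscle cells, 4 and 9 in monocytes or dendritic cells, and 0 and 11 in B cells, for the Cept1 and control libraries. In the cells below 10 members the ratios were -0.56, 0.09, -0.23, -0.19 and -0.48 in the same order of classes. Of the mitotic UMIs behind the T or NK value, 63 of 117 and 457 of 615 came from the 3 centromere genes.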

How the results depend on the processing

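Each of the 17 alternatives recomputed only a part of the values, and no called value that was recomputed changed sign. Over all kept cells, 30 of the 32 members were lower in every alternative that recomputed their single ratios. Changes of the member or UMI limits, the class shares and the Ptprc exclusion did not recompute these, and changes of the gate cannot alter them. Ratios of single members within a class were not recomputed, nor were mitotic sums of classes other than endothelial, smooth muscle and fibroblast. Of the recomputed values below the called size, 13 changed sign. The cause of each shift below was not tested. No paired analysis was possible because each group has 1 library, and for the same reason no replicate could be left out. The limits of 10 and 20 members, the exclusion of cells with Ptprc and that of the cell with the most member UMIs were chosen after seeing the data.

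Values are log2 ratios of the sum of all members unless named otherwise. With TMM scaling, which shifted ratios by -0.14 in T or NK cells and 0.34 in neutrophils, the sum was at -0.37 over all kept cells, -0.22 in fibroblasts and 0.82 in T or NK cells. With every cell weighted equally it was at -0.042 in endothelial cells, -0.50 in fibroblasts, -0.12 in smooth muscle cells, -0.060 in thymocyte-like T cells and -0.47 in B cells, and the mitotic sum at -0.67 over all kept cells, 0.61 in endothelial cells and -1.26 in fibroblasts. With 1000 or more genes and up to 5% mitochondrial UMIs it was at 0.48 in endothelial cells, -0.19 in fibroblasts, -0.40 in smooth muscle cells, 0.10 in macrophages, -0.0065 in thymocyte-like T cells and -2.29 in B cells, and the mitotic sum at -0.48 over all kept cells, 1.45 in endothelial cells and -0.20 in fibroblasts. Under that filter 23.1% of cells of the Cept1 library and 35.4% of the control library had at least 3 members, and 1.34% and 2.10% at least 10. With 200 or more genes and up to 20% mitochondrial UMIs the shares with at least 3 members were 15.5% and 20.7%, that with at least 10 was 1.07% in the control library, and the endothelial sum was at 0.16. With doublets kept, 19.4% of cells of the Cept1 library had at least 3 members, the mitotic sum over all kept cells was at -0.57 and the smooth muscle sum at -0.16.

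With a gate of 80% the sum was at 0.36 in endothelial cells, -0.50 in smooth muscle cells, -0.027 in macrophages, -3.13 in monocytes or dendritic cells, 1.11 in T or NK cells, -0.35 in thymocyte-like T cells and -1.05 in B cells, and the mitotic sum at 1.68 in endothelial and -2.37 in smooth muscle cells. Without Stmn1, Pcna and Hmgb2 it was at -0.45 over all kept cells, 0.49 in endothelial cells, -0.42 in smooth muscle cells, 0.14 in macrophages, -1.52 in monocytes or dendritic cells and -1.77 in B cells, and 5.40% and 9.81% of cells of the Cept1 and control libraries had at least 3 members, and 1.10% of the control library at least 10. In cells thinned to 2000 UMIs it was at -0.050 in endothelial cells, -0.53 in fibroblasts, -0.0070 in smooth muscle cells, -1.12 in monocytes or dendritic cells, -0.41 in thymocyte-like T cells and -0.36 in B cells, the mitotic sum at -0.67 over all kept cells, 0.69 in endothelial cells and -1.37 in fibroblasts, and the endothelial median member at -0.048. There 2.47% and 4.08% of cells had at least 3 members and 0.48% and 0.62% at least 10. The endothelial median was at 0.078 over members with at least 100 UMIs.

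At least 2 members were found in 37.7% of cells of the Cept1 library and 46.2% of the control library, at least 5 in 3.82% and 7.29%, and at least 20 in 0.55% and 0.76%. At the class shares of the control library, the share of the Cept1 library with at least 10 members was 1.39%. Without cells that had a Ptprc UMI the sum was at -0.043 in endothelial cells, -0.19 in fibroblasts and -0.37 in smooth muscle cells, the mitotic sum at 0.46 in endothelial and -1.92 in smooth muscle cells, and the endothelial median at -0.021. Without the cell with the most member UMIs of each class and library, the sum was at -0.35 over all kept cells, -0.091 in smooth muscle cells, -1.46 in monocytes or dendritic cells, 0.89 in T or NK cells and -1.22 in B cells, and the mitotic sum at -0.44 over all kept cells and 1.51 in endothelial cells.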

Other observations

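Among cells that received no class, 14 of the Cept1 library and 13 of the control library had at least 10 members. Monocyte or dendritic markers led in 6 and 8 of them, T or NK markers in 4 and 1, macrophage markers in 2 and 1, fibroblast markers in 1 and 3, and B cell markers in 1 and 0. Of the cells removed as doublets, 175 of 486 in the Cept1 library and 46 of 89 in the control library had at least 3 members, and 5 and 0 had at least 10. Rare classes too small to compare also held such cells: 1 and 3 immature neutrophils, 2 and 2 plasma cells, and 0 and 2 erythroid cells.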
